A study of Mus musculus with 1376 samples.

Results

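10 genes of the Notch pathway were followed across the cell classes of the mouse lung, namely the receptors Notch1, Notch2, Notch3 and Notch4, the ligand Jag1 and the target genes Heyl, Hey1, Hey2, Hes1 and Nrarp. They were chosen by name, as the rows of the lung count table for these symbols, and all 10 were found among the 46517 genes of the table. Notch receptors are membrane proteins that are cut when a ligand on a neighbouring cell binds them. The freed inner part enters the nucleus, joins the DNA-binding protein RBPJ and switches on targets such as the Hes and Hey genes, which encode transcriptional repressors, and Nrarp, a feedback inhibitor. In blood vessels Notch3 is known as the receptor of mural cells, which are the smooth muscle cells (SMC) and pericytes around the endothelial tube, while Notch1 and Notch4 are known from the endothelium itself.

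The series holds 1376 single cells from the lungs of 3 mice of the ACTA2GFP:CSPG4dsRED strain, named for reporters of smooth muscle actin (Acta2) and of the proteoglycan NG2 (Cspg4). All 3 mice carried both reporters and none was given a treatment in the labels. Male mouse 1 filled plates 045s and 046s and each of male mouse 2 and female mouse 1 filled 1 plate, and values below stand in this order of mice. The labels give an age of 8 to 30 weeks while the series text gives at most 21 weeks and speaks of male mice. The extract protocol names heart although the tissue label is lung, and the sources used here do not give the sort gate.

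Each library is 1 cell read over its whole cDNA without molecular identifiers, and the mouse was the replicate. The depth of the cells lay between 50835 and 1074103 counts (median 230688), and 0 cells had the same counts as another. With 3 mice, sex and plate cannot be told apart from the animal, except that plates 045s and 046s both come from male mouse 1. Cells were clustered without any of 52 Notch pathway genes, so the members took no part in the classes between which they were compared, although genes that vary with them did. Clusters were named from marker genes as airway SMC-like (79 cells), pericyte-like (97 cells), endothelial-like (67 cells), alveolar myofibroblast-like, alveolar fibroblast-like and vascular SMC-like. Vascular SMC-like cells made up 42.6%, 46.9% and 16.7% of the cells of the 3 mice and pericyte-like cells 3.22%, 3.12% and 17.5%. A cluster of 80 fibroblasts with markers of more than 1 list is called by its leading genes Pi16 and Bmp7. A cluster of 62 immune-like cells, 1 of 83 cells led by 5430402O13Rik and Myl2 and 1 led by Kcna1 and Gpr37l1 entered no test, and statements about classes below do not cover them unless they are named. All 8 endothelial markers had counts in the endothelial-like cells of female mouse 1, at a summed 13040 CPM (counts scaled to library size), against 49.5 to 117.2 CPM in vascular SMC-like cells. The 10 pericyte markers summed to 12022 to 20438 CPM in pericyte-like cells, against 2714 to 3498 CPM in vascular SMC-like cells. The 8 airway markers separated the muscle classes less sharply. They summed to 7241 to 8972 CPM in airway SMC-like cells and 6686 to 8813 CPM in alveolar myofibroblast-like cells. In vascular SMC-like cells they summed to 2995 to 5421 CPM. The 12 vascular SMC markers summed to 2349.5 to 2819.2 CPM in vascular SMC-like cells, against 402.2 to 632.996 CPM in airway SMC-like cells. The 7 alveolar myofibroblast markers summed to 11068 to 15505 CPM in their own class. Their sums were 5902 to 7637 CPM in airway SMC-like and 833.9 to 1381.6 CPM in vascular SMC-like cells. Endothelial-like cells came almost wholly from female mouse 1 (65 of 67), so they are described without a test.

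Notch3 was the dominant receptor of the vascular mural cells and was near the bottom of its range in airway muscle. The gene (ENSMUSG00000038146) lies on the minus strand of GRCm38 at chr17:32120820-32166852. Counts summed over the cells of a class gave 1.61, 0.871 and 13.1 CPM in the alveolar myofibroblast-like cells of the 3 mice. Airway SMC-like cells had 2.66, 1.62 and 16.3 CPM, which rest on 35 counts in male mouse 1 and 4 in male mouse 2. Alveolar fibroblast-like cells had 9.90, 33.4 and 28.6 CPM, and these values fell without the highest cell of each mouse, as given below. Pericyte-like cells had 872, 971 and 3159.8 CPM, against 464.3, 460.6 and 1229 CPM in vascular SMC-like cells. Every mural value lay above every airway, myofibroblast and fibroblast value. In female mouse 1 the values outside the mural classes were 28.6 CPM in alveolar fibroblast-like, 16.3 in airway SMC-like, 13.1 in alveolar myofibroblast-like, 15.99 in Pi16-Bmp7 and 13.4 in endothelial-like cells.

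Shares of cells with a count were high in the mural classes and did not rank the other classes as the levels did. With each cell thinned to 50000 counts, a Notch3 count was found in 100%, 90.9% and 98.5% of pericyte-like cells and in 80.2%, 76.97% and 98.4% of vascular SMC-like cells. In airway SMC-like cells the shares were 26.8% (exact binomial 95% interval 14.2% to 42.9%), 8.33% (0.211% to 38.5%) and 73.1% (52.2% to 88.4%), and the intervals cover counting error only. Before thinning, the airway shares were 65.9%, 25% and 100%. In female mouse 1 alveolar fibroblast-like cells, at 28.6 CPM, had a share of 38.9%, under the 73.1% of airway SMC-like cells at 16.3 CPM. Without its highest cell the fibroblast level of that mouse was close to the airway level. The high airway share in that mouse stands beside a share of 35.4% at 13.4 CPM in endothelial-like cells, a class not known for Notch3. Shares at such low levels on that plate were not read as expression, and the source of these counts was not tested. Within vascular SMC-like cells of male mouse 1 the lower and upper quartile of the cells were 33.9 and 731 CPM of Notch3 around a median of 328.4 CPM.

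**Figure D1:**
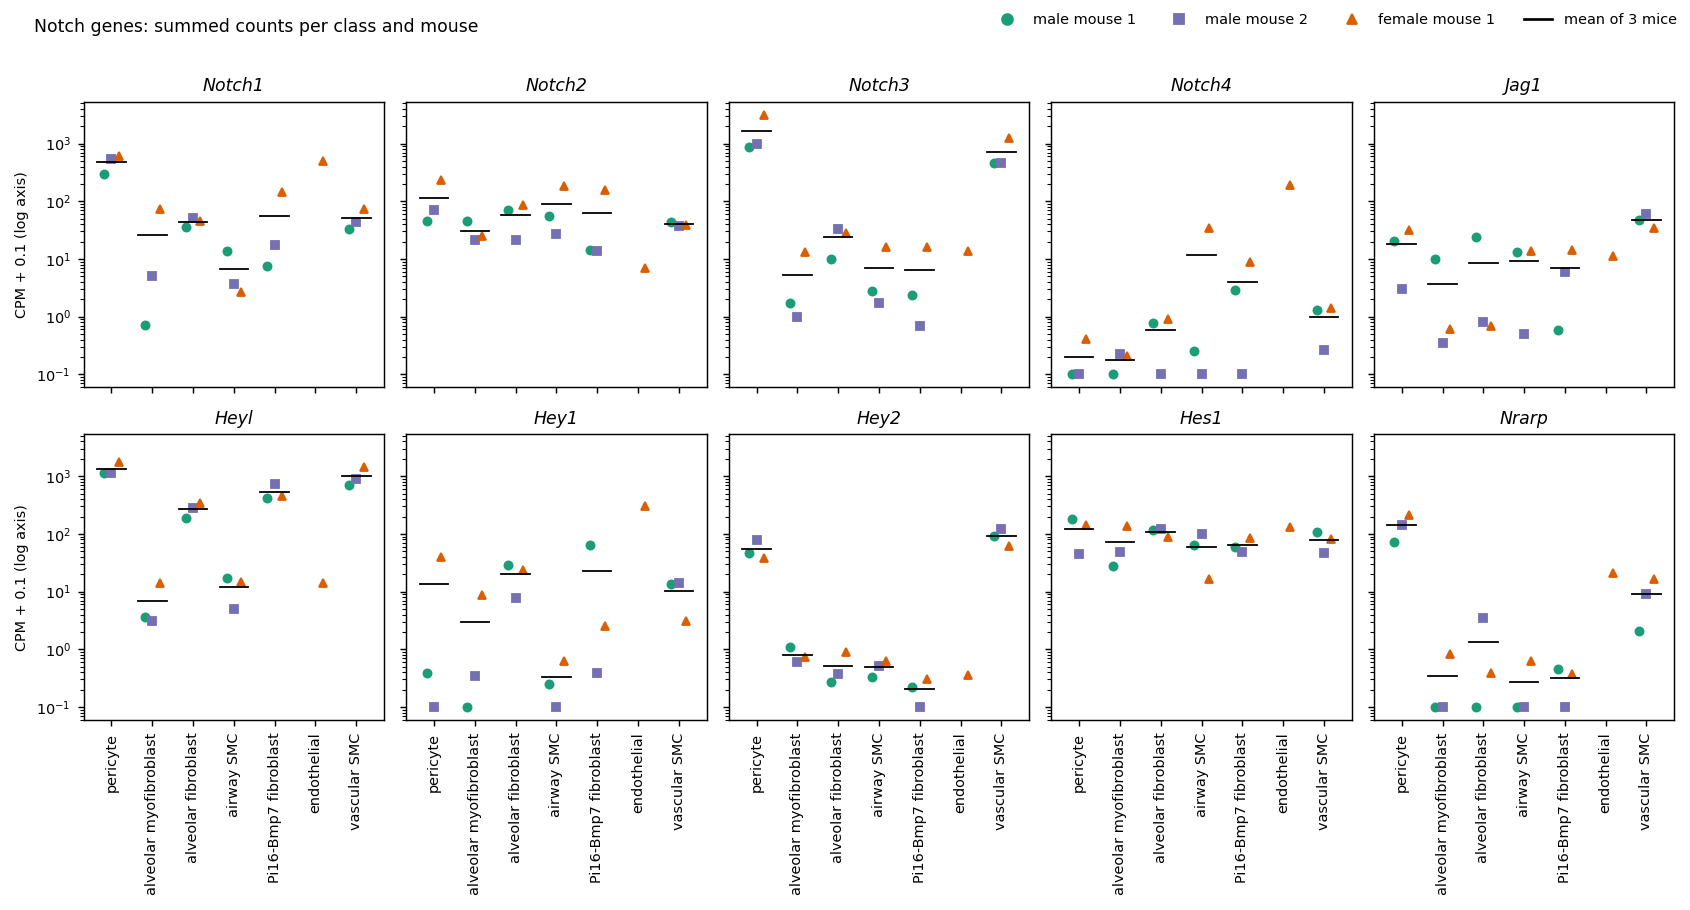
Level of each of the 10 genes in 7 cell classes, as CPM of counts summed per class and mouse, plus 0.1 on a log axis. Each mouse has 1 symbol, and a line marks the mean of classes with 3 mice. Endothelial-like cells have 1 mouse and no line. Notch3, Heyl and Hey2 are high in pericyte-like and vascular SMC-like cells and low in airway SMC-like cells in all 3 mice, while Hes1 lies between 16.1 and 180.4 CPM in all 7 classes.

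3 of the 10 members, Notch3, Heyl and Hey2, differed between airway and vascular muscle, all lower in airway muscle. With edgeR's quasi-likelihood test on the sums per class and mouse, 1.86% of 16182 genes were called at an adjusted p under 0.05, of which the higher ones in airway muscle made 1.01% and the lower ones 0.853%. All 10 members passed the filter on low counts, and of those called 3 were lower and 0 were higher. DESeq2 called 6 members, these 3 with Jag1, Hey1 and Nrarp, all lower. It also called a larger share of all genes than edgeR, given below with the other pathway genes. The median log2 fold change was -4.72 over the 10 members and -0.17 over all genes tested. The log2 fold change of Notch3 was -7.03 ± 0.68 (SE, adjusted p = 0.00021, edgeR), and it was lower in 3 of 3 mice. On the plates of male mouse 1 taken apart, Notch3 was at 2.93 CPM in airway and 548.7 CPM in vascular SMC-like cells on plate 045s, and at 2.45 and 376.01 CPM on plate 046s. An antisense gene, Gm17276, overlaps 6.03% of the exonic bases of Notch3. It held 7630 counts, against 146401 counts of Notch3, and since the counting of strand is not stated the reads of the shared part cannot be told apart.

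Notch1 was the second receptor of the pericyte-like cells. The gene (ENSMUSG00000026923, chr2:26457903-26516663, minus strand) encodes the receptor best known for arterial fate and sprouting in endothelium. Pericyte-like cells had 298.3, 535.7 and 604.4 CPM, against 32.9, 44.1 and 74.97 CPM in vascular SMC-like cells, so the ranges did not overlap and the pericyte-like value was higher in each mouse. On plates 045s and 046s of male mouse 1, Notch1 was at 231.3 and 337.8 CPM in pericyte-like cells, against 33.04 and 32.8 CPM in vascular SMC-like cells. The difference of 3.30 ± 1.11 on the log2 scale nevertheless missed the threshold (adjusted p = 0.138, edgeR). It passed with DESeq2 (3.49, adjusted p = 0.0109) and in a fit of the pericyte-like and vascular SMC-like sums alone (3.33 ± 0.30, adjusted p = 0.00774), and over 10 alternatives the adjusted p ran from 0.00774 to 0.462.

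Endothelial cells also make Notch1, and the endothelial-like cells of female mouse 1 had 495.1 CPM. The summed endothelial markers were at 10.3 to 59.2 CPM in pericyte-like cells and 49.5 to 117.2 CPM in vascular SMC-like cells, against 13040 CPM in endothelial-like cells. Tie1 and Emcn were at 0 in pericyte-like cells of male mouse 1 and Kdr in those of male mouse 2. The other markers of the list of 8 had counts in those mice, and all 8 did in pericyte-like cells of female mouse 1. Without pericyte-like cells that had counts of at least 3 endothelial or 3 immune markers, Notch1 was at 293.7, 515.6 and 566.2 CPM. In male mouse 1 and female mouse 1 the level was carried by part of the cells, and the median cell lay far below it. In male mouse 2 the median cell lay close to the level of the sum. The median pericyte-like cell had 13.2, 542.05 and 57.4 CPM, and the thinned share with a count was 47.6%, 90.9% and 60%. Alveolar fibroblast-like cells had 35.99, 50.5 and 46.1 CPM of Notch1 and airway SMC-like cells 13.5, 3.64 and 2.60 CPM, and 75.3% of the counts of male mouse 1 there sat in 1 cell. In male mouse 2 a Notch1 count, unthinned, was found in 75% of airway SMC-like cells at only 3.64 CPM, so its shares there were not read as expression. Notch1 shares 9.76% of its exonic bases with 2 genes on the other strand.

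Notch2 (ENSMUSG00000027878, chr3:98013527-98150361, plus strand), a receptor known from bile ducts, kidney and vessel wall, set the classes measured in 3 mice less far apart than Notch3. Its level was 54.997, 26.7 and 184.3 CPM in airway SMC-like cells, against 44.1, 36.7 and 39.5 CPM in vascular SMC-like cells. Pericyte-like cells had 45.7, 69.3 and 233.8 CPM, and alveolar fibroblast-like cells 69.99, 21.3 and 84.8 CPM. Endothelial-like cells of female mouse 1 were lower, at 6.86 CPM. Over the 6 named or Pi16-Bmp7 classes with 3 mice, all neighbours in the order of means overlapped, from 116.3 ± 102.5 CPM in pericyte-like to 30.4 ± 12.6 CPM in alveolar myofibroblast-like cells (SD, n = 3). Farther apart in it, the lowest pericyte-like value (45.7 CPM) lay just above the highest of vascular SMC-like (44.1 CPM) and alveolar myofibroblast-like cells (44.7 CPM). Pericyte-like cells were above vascular SMC-like cells in 3 of 3 mice, a difference that edgeR did not call. The airway difference of 0.75 ± 0.66 on the log2 scale did not pass (adjusted p = 0.852, edgeR). Notch2 and the gene Gm42820 on the same strand share 5.02% of the exonic bases of Notch2.

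Notch4 (ENSMUSG00000015468, chr17:34564268-34588503, plus strand), known as an endothelial receptor, was low outside endothelium. It was at 191.2 CPM in the endothelial-like cells of female mouse 1. Pericyte-like cells had 0, 0 and 0.308 CPM and vascular SMC-like cells 1.18, 0.161 and 1.29 CPM. An airway value of 34.5 CPM in female mouse 1 came almost from 1 cell, which held 98.5% of its counts, while the other mice had 0.152 and 0 CPM there.

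Set against each other per kilobase of exon, the receptors gave the following make-up, with no test between classes. Notch3 took 80.03 ± 6.4% of the summed receptor level in pericyte-like cells and 91.3 ± 2.7% in vascular SMC-like cells (SD, n = 3), with Notch1 at 16.01 ± 6.8% and 3.92 ± 0.85%. In airway SMC-like cells Notch2 took 78.9 ± 6.0% and Notch3 6.83 ± 1.70%. Alveolar myofibroblast-like cells varied more, with Notch2 at 67.01 ± 36.2%, Notch1 at 23.8 ± 28.7% and Notch3 at 8.92 ± 7.69%. Pi16-Bmp7 fibroblasts had Notch2 at 52.2 ± 1.7%, Notch1 at 34.7 ± 12.9% and Notch3 at 7.12 ± 4.30%. Alveolar fibroblast-like cells were mixed, with Notch2 at 45.6 ± 22.2%, Notch1 at 27.7 ± 7.9% and Notch3 at 26.2 ± 15.6%. In the endothelial-like cells of 1 mouse Notch1 took 57.2% and Notch4 39.01%. These shares are proportions within a class, and the level of Notch2 itself did not pass between airway and vascular muscle.

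**Figure D2:**
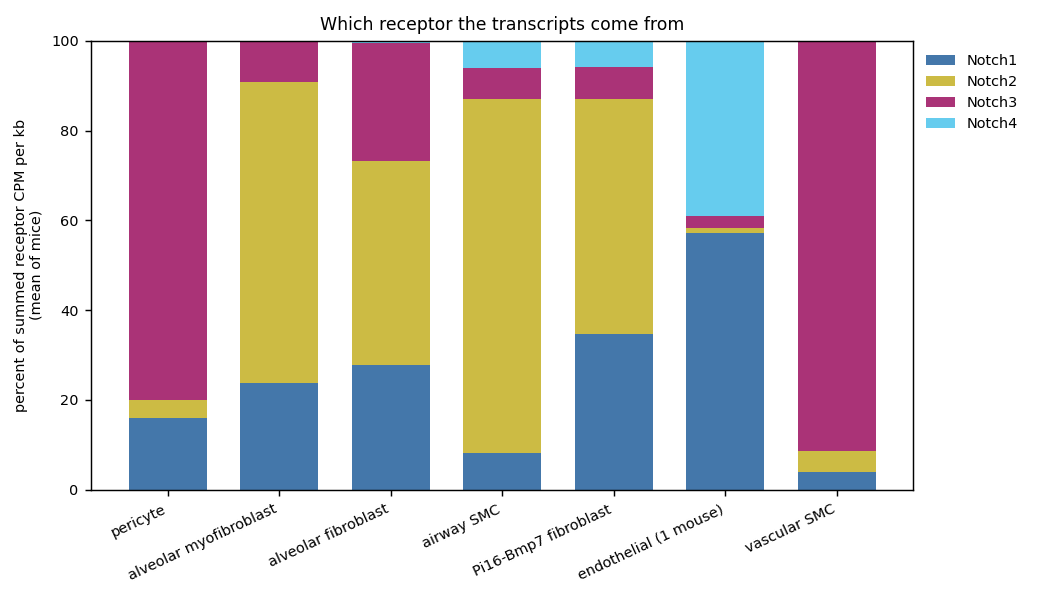
Make-up of the 4 receptors in 7 cell classes, as the mean percent of the summed receptor level in CPM per kilobase of exon, stacked to 100% (3 mice, 1 for endothelial-like cells). Notch3 fills most of the pericyte-like and vascular SMC-like bars, Notch2 most of the airway SMC-like bar, and Notch1 with Notch4 most of the endothelial-like bar.

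Jag1, the only ligand among the 10 genes, had its highest mean among the named classes in vascular SMC-like cells. The gene (ENSMUSG00000027276, chr2:137081456-137116644, minus strand) encodes a ligand by which endothelium and muscle cells signal to neighbouring muscle cells. Pericyte-like cells had 20.1, 2.93 and 31.1 CPM and airway SMC-like cells 12.99, 0.405 and 13.7 CPM, against 48.2, 60.004 and 34.3 CPM in vascular SMC-like cells. No value of the other 4 named classes with 3 mice or the Pi16-Bmp7 cluster reached the vascular range, although the unnamed cluster led by Kcna1 and Gpr37l1 overlapped it at 36.9, 30.2 and 43.5 CPM. The unnamed cluster led by 5430402O13Rik and Myl2 lay above it in male mouse 1, at 384.8 CPM, and was at 1.76 CPM in male mouse 2. Of the low sums, 91.2% of the airway counts of male mouse 1 and 97.1% of those of female mouse 1 came from 1 cell each. The tests did not pass, at -3.76 ± 1.62 on the log2 scale for airway (adjusted p = 0.391, edgeR) and -2.47 ± 1.55 for pericyte-like cells (adjusted p = 0.485, edgeR). Alveolar fibroblast-like cells, at 23.6, 0.711 and 0.589 CPM, were -4.76 ± 1.67 from vascular SMC-like cells (adjusted p = 0.155, edgeR). DESeq2 passed the airway difference (adjusted p = 0.0451) and the fibroblast difference (adjusted p = 0.00179), and none of the other alternatives did.

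Heyl, a Hey-family repressor and known Notch3 target of mural cells, was the target with the highest CPM in both mural classes, and unlike Hey2 it was also high in fibroblasts. The gene (ENSMUSG00000032744) lies on the plus strand at chr4:123233556-123249875. Pericyte-like cells had 1155, 1134 and 1779 CPM, and Pi16-Bmp7 fibroblasts 413.4, 744 and 446.8 CPM. In alveolar myofibroblast-like cells the level was 3.595, 2.99 and 13.9 CPM. Alveolar fibroblast-like cells had 185.2, 284.4 and 337.8 CPM and airway SMC-like cells 16.8, 4.86 and 14.6 CPM, against 694, 902 and 1420.2 CPM in vascular SMC-like cells. The alveolar fibroblast-like range overlapped with none of these classes, lying below both mural classes and the Pi16-Bmp7 cluster and above airway SMC-like and alveolar myofibroblast-like cells.

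3 of the differences in Heyl passed. It was lower in airway SMC-like than in vascular SMC-like cells (log2 fold change -6.26 ± 0.52, adjusted p = 7.71e-05, edgeR, lower in 3 of 3 mice). Alveolar myofibroblast-like cells had less than alveolar fibroblast-like cells (-5.51 ± 0.50, adjusted p = 7.4e-05, edgeR, 3 of 3 mice), in a comparison where 2.28% of genes were called, 0.97% higher and 1.31% lower. Both held under all 12 alternatives. Alveolar fibroblast-like cells had less than vascular SMC-like cells (-1.82 ± 0.42, adjusted p = 0.0225, edgeR, 3 of 3 mice), where 5.77% of genes were called, 3.36% higher and 2.4% lower. That call was lost without male mouse 1 (adjusted p = 0.117), without male mouse 2 (0.0536) and without female mouse 1 (0.190), while the fold change stayed between -1.96 and -1.75. It was also lost without the mouse block (0.0838) and in the clustering on the whole table (0.129). Between pericyte-like and vascular SMC-like cells Heyl differed by 0.45 ± 0.41 (adjusted p = 0.673, edgeR), which did not pass.

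The fibroblasts held Heyl without much Notch3. Notch3 was lower in alveolar fibroblast-like than in vascular SMC-like cells (log2 fold change -4.66 ± 0.61, adjusted p = 0.000522, edgeR, 3 of 3 mice), a larger gap than that of Heyl, although the difference between the gaps was not tested. Without male mouse 1 the Notch3 difference was -4.25 and just missed the threshold (adjusted p = 0.0533). In male mouse 2, 83.9% of the Notch3 counts of alveolar fibroblast-like cells came from 1 cell, and without the highest cell of each mouse the levels were 5.28, 5.47 and 16.2 CPM. After thinning, 26, 38 and 30 alveolar fibroblast-like cells had a Heyl count, and of these 15, 26 and 3 had no Notch3 count even at full depth. At full depth a mean of 50.3% of all alveolar fibroblast-like cells per mouse had a Notch3 count. Among pericyte-like cells, 20, 10 and 61 cells had a Heyl count after thinning and all of them had a Notch3 count too. That overlap was close to fixed in advance, since 100% of pericyte-like cells had a Notch3 count at full depth. In vascular SMC-like cells the share with a Heyl count was 84.9%, 93.9% and 96.8%, and 20, 26 and 0 of these cells lacked any Notch3 count. Pi16-Bmp7 fibroblasts had Heyl counts in 79.2%, 81.2% and 80% of thinned cells, with Notch3 at 2.30, 0.590 and 15.99 CPM.

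**Figure D3:**
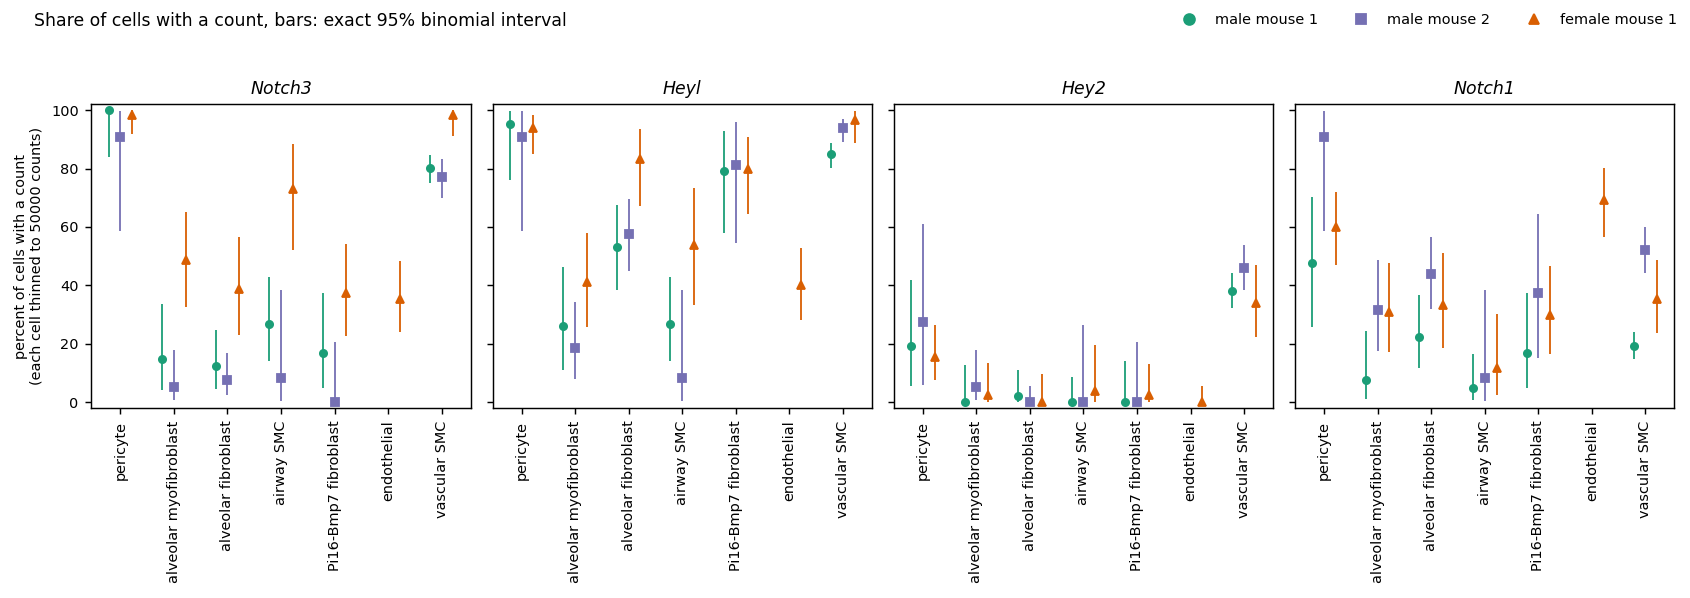
Share of cells with at least 1 count of Notch3, Heyl, Hey2 and Notch1 in each class and mouse after thinning every cell to 50000 counts, in percent, with exact binomial 95% intervals as bars. Heyl is found in 53.1%, 57.6% and 83.3% of the alveolar fibroblast-like cells of the 3 mice, where Notch3 is found in 12.2%, 7.58% and 38.9%.

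Alveolar myofibroblast-like cells also had less Notch3 than alveolar fibroblast-like cells (-2.93 ± 0.60, adjusted p = 0.0239, edgeR, 3 of 3 mice). This call was weak. It was lost without male mouse 1 (-3.18, adjusted p = 0.286), without male mouse 2 (-1.72, adjusted p = 0.0999) and without female mouse 1 (-3.97, adjusted p = 0.0644). It was also lost without the mouse block (-2.22, adjusted p = 0.383), in a fit of these sums alone (-2.86, adjusted p = 0.445) and at Leiden resolution 2 (-2.81, adjusted p = 0.0509). On plate 045s of male mouse 1 the order was the other way, with 1.48 CPM in alveolar myofibroblast-like and 0.495 CPM in alveolar fibroblast-like cells, from 5 and 4 counts. Between alveolar myofibroblast-like and airway SMC-like cells, 1.01% of genes were called (0.47% higher, 0.544% lower) and 0 of the 10 members were, by edgeR and by DESeq2 alike. At an unadjusted p under 0.05 there was 1 member, Heyl, at -1.07 ± 0.44 on the log2 scale (adjusted p = 0.347, edgeR).

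Hey2 was close to 0 in each named class other than the mural ones, fibroblasts included. The gene (ENSMUSG00000019789, chr10:30832359-30842801, minus strand) encodes a repressor known for smooth muscle and arterial development. Pericyte-like cells had 46.4, 78.6 and 37.5 CPM and airway SMC-like cells 0.228, 0.405 and 0.520 CPM, against 92.1, 122.3 and 60.7 CPM in vascular SMC-like cells. Alveolar myofibroblast-like, airway SMC-like and alveolar fibroblast-like cells held 18, 8 and 19 Hey2 counts over all 3 mice, against 11957 counts in vascular SMC-like cells. Alveolar myofibroblast-like cells had 0.992, 0.498 and 0.628 CPM and alveolar fibroblast-like cells 0.166, 0.274 and 0.810 CPM, so each of these classes lay below 1 CPM in every mouse. Hey2 was lower in airway SMC-like than in vascular SMC-like cells (log2 fold change -7.89 ± 1.03, adjusted p = 0.00159, edgeR, 3 of 3 mice). It missed the threshold without male mouse 1 (-7.54, adjusted p = 0.0728) and without male mouse 2 (-7.69, adjusted p = 0.0562). It was lower in alveolar fibroblast-like than in vascular SMC-like cells (-7.78 ± 1.01, adjusted p = 0.00052, edgeR, 3 of 3 mice), and this held under all 12 alternatives. Even so, Hey2 was found in a minority of mural cells, at 19.05%, 27.3% and 15.4% of thinned pericyte-like cells and 38.1%, 46.1% and 33.9% of thinned vascular SMC-like cells. In pericyte-like cells of male mouse 2, 85.7% of the Hey2 counts came from 1 cell.

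Notch3 and Hey2 varied together across classes, and their upstream sequences are shown because they are the receptor and target with the closest pattern. RefSeq gave upstream sequence on GRCm38.p6 for 7 of the 10 members, and not for Heyl, Hey1 and Hes1. The core letters of the RBPJ site, GTGGGAA, were searched on both strands (TTCCCAC on the other) in the 250 bases before each start. They were found in 1 of the 7 members, Hey2, nearer to the far end of the window than to the start, and in 1779 of 32851 windows of this length (5.415%). Capitals mark the match, and both sequences run 5′ to 3′ on the minus strand, toward the start.
Hey2, chr10:30842784-30843033: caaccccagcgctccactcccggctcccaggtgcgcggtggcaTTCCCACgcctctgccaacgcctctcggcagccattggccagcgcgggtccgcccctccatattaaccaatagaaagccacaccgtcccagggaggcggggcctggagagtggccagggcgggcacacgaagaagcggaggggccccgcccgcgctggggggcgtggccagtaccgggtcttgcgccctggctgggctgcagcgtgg
Notch3, chr17:32166891-32167140: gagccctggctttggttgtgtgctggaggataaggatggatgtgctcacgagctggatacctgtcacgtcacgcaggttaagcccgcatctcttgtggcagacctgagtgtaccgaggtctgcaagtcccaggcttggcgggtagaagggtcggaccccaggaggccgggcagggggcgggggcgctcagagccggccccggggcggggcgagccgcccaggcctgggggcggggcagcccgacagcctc
The match is a description of these letters, and binding was not measured here.

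Hey1 and Hes1 did not follow the order of Notch3 through the classes. Hey1 (ENSMUSG00000040289, chr3:8663359-8667256, minus strand), a repressor known from endothelium, was at 302.98 CPM in the endothelial-like cells of female mouse 1. Airway SMC-like cells had 0.152, 0 and 0.520 CPM, against 13.5, 14.04 and 2.95 CPM in vascular SMC-like cells. Although the ranges did not overlap, the fitted difference was imprecise (-7.13 ± 2.33 on the log2 scale, adjusted p = 0.197, edgeR) and passed with DESeq2 alone of 12 alternatives (adjusted p = 0.00317). Alveolar fibroblast-like cells had 29.02, 7.50 and 23.1 CPM and pericyte-like cells 0.291, 0 and 40.1 CPM.

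Hes1 (ENSMUSG00000022528, chr16:30064384-30067796, plus strand), a repressor that answers to Notch and to other signals, was found in each muscle, mural and fibroblast class. Means ran from 59.5 ± 40.99 CPM in airway SMC-like to 123.4 ± 70.6 CPM in pericyte-like cells (SD, n = 3), and all neighbours in that order overlapped. Farther apart in it, the range of alveolar fibroblast-like cells (88.7 to 121.3 CPM) lay above that of Pi16-Bmp7 fibroblasts (48.1 to 85.6 CPM). Immune-like cells were lower, at 1.31 to 5.14 CPM in 2 mice. Airway SMC-like cells had 64.8, 97.6 and 16.1 CPM, against 109.3, 46.3 and 80.6 CPM in vascular SMC-like cells, a difference of -0.23 ± 0.76 on the log2 scale (adjusted p = 0.993, edgeR).

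Nrarp (ENSMUSG00000078202, chr2:25180758-25183339, plus strand), a feedback inhibitor that acts on the Notch complex, had its highest level in pericyte-like cells. These had 72.9, 141.1 and 214.9 CPM, against 1.94, 8.999 and 16.4 CPM in vascular SMC-like cells. Every pericyte-like value lay above every vascular one, and the difference of 4.57 ± 1.44 on the log2 scale missed the threshold (adjusted p = 0.116, edgeR). It passed with DESeq2 (4.74, adjusted p = 0.00441), in a fit of these sums alone (4.36, adjusted p = 0.0332) and in the clustering on the whole table (4.46, adjusted p = 0.0308), and over 10 alternatives the adjusted p reached 0.416. Airway SMC-like cells of the 3 mice had 0, 0 and 4 counts, or at most 0.520 CPM, and were at -5.67 ± 1.66 on the log2 scale from vascular SMC-like cells (adjusted p = 0.137, edgeR), which passed with DESeq2 (adjusted p = 0.00772) and in the clustering on the whole table (adjusted p = 0.0290). In male mouse 1, 1 cell held 48.3% of the pericyte-like counts, and another 73.2% of the vascular SMC-like counts. Gm38287, on the other strand, covers 79.4% of the exonic bases of Nrarp and held 3991 counts, against 4913 counts for Nrarp, so the reads of the pair cannot be told apart.

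Between pericyte-like and vascular SMC-like cells 3.79% of genes were called by edgeR (1.74% higher, 2.06% lower) and 0 of the 10 members were, while 2 members, Nrarp and Notch1, had an unadjusted p under 0.05, as did 16.99% of all genes. Notch3 was at 1.10 ± 0.52 on the log2 scale (adjusted p = 0.313, edgeR), and in a fit of these sums alone it passed (1.18 ± 0.19, adjusted p = 0.0391). DESeq2 called 2 members, Notch1 and Nrarp, and here too it called a larger share of all genes than edgeR. Members' calls by comparison were 3 of 10 for airway against vascular muscle, 2 of 10 for alveolar myofibroblasts against alveolar fibroblasts and 3 of 10 for alveolar fibroblasts against vascular muscle, all lower in the class named first.

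**Figure D4:**
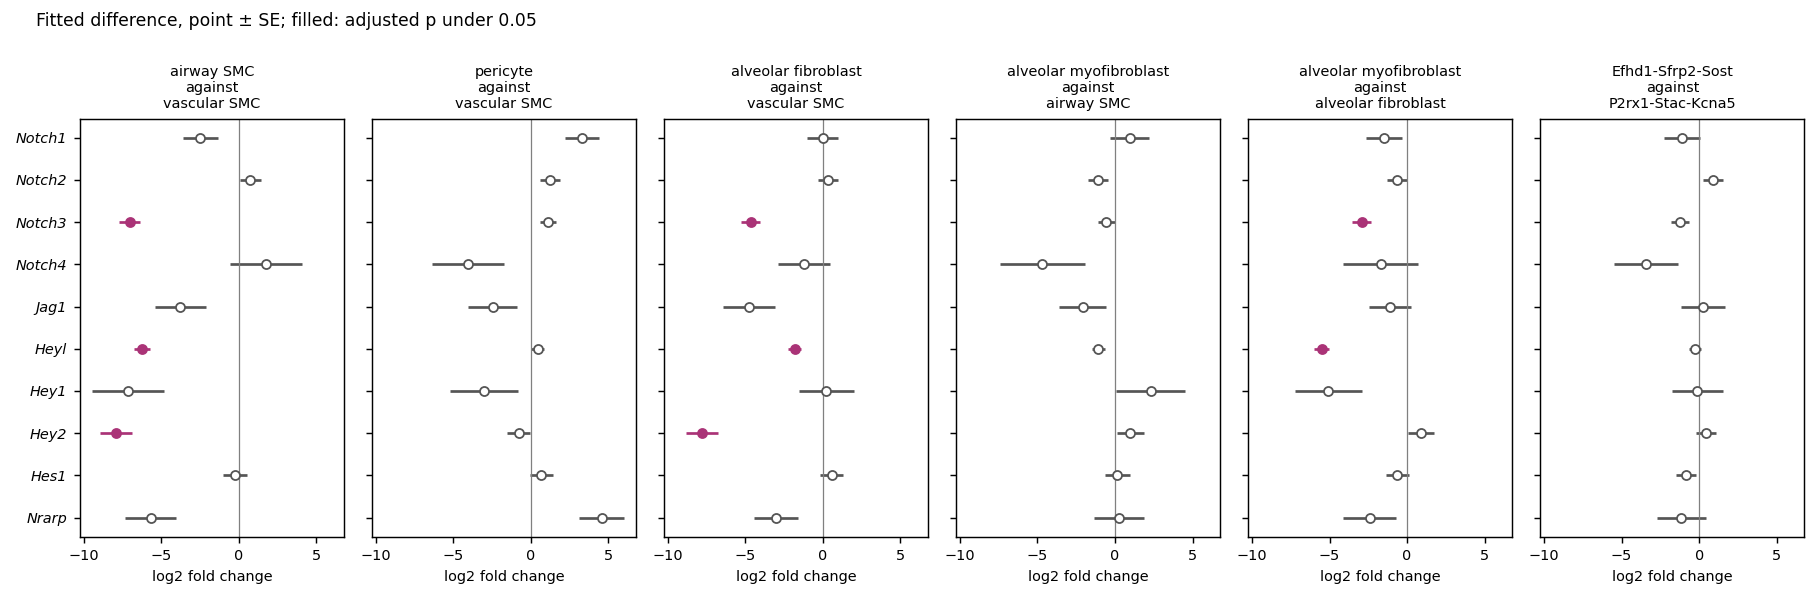
Log2 fold change of each member in 6 comparisons, from edgeR on counts summed per class and mouse, with bars of 1 standard error. Filled symbols passed at an adjusted p under 0.05, and these are Notch3 with Heyl or with Heyl and Hey2 in 3 comparisons, all below 0.

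Pericyte-like cells fell into 2 clusters, of 44 cells with high Clstn2 and 53 cells with high Col8a1. Since male mice 1 and 2 gave only 5 and 8 cells of the first and male mouse 2 only 3 of the second, the values are given without a test. Notch1 was at 577.8, 637.2 and 888 CPM in Clstn2-high cells, against 212.1, 347.9 and 420.8 CPM in Col8a1-high cells, and the ranges did not overlap. Notch2 was at 106.8, 103.1 and 280.6 CPM in Clstn2-high cells, against 26.8, 6.96 and 203.5 CPM in Col8a1-high cells. The Notch3 level was 906, 1204 and 2901 CPM in Clstn2-high cells, against 862, 539.98 and 3328 CPM in Col8a1-high cells, with no common direction. Targets did not follow Notch1 as a group. Hey2 was lower in Clstn2-high cells in 3 of 3 mice, at 0, 17.3 and 19.02 CPM, against 60.7, 192.1 and 49.4 CPM in Col8a1-high cells, where the value of male mouse 2 is 1 cell. Heyl was at 1154, 981 and 1337 CPM in Clstn2-high cells, against 1155.5, 1417 and 2066 CPM in Col8a1-high cells, almost equal in male mouse 1 and lower in the other mice. Nrarp was at 2.47, 188.1 and 303.2 CPM in Clstn2-high cells, against 94.6, 54.3 and 157.8 CPM in Col8a1-high cells. The median depth was 154192 counts per Clstn2-high cell and 233860 per Col8a1-high cell.

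Vascular SMC-like cells also held 2 main clusters, one led by Efhd1, Sfrp2 and Sost and one of 260 cells led by P2rx1, Stac and Kcna5. A further 88 cells, in which neither set of genes clearly outscored the other, were not compared here. The fit called 44 of 15738 genes (0.28%), of which 8 (0.0508%) were higher and 36 (0.229%) lower in the Efhd1 cluster, and 0 of the 10 members, with 0 members at an unadjusted p under 0.05 and 0 called by DESeq2. Notch3 was at 336.4, 221.2 and 480.5 CPM in the Efhd1 cluster, against 534.2, 721 and 1730.2 CPM in the P2rx1 cluster, lower in 3 of 3 mice (-1.26 ± 0.58 on the log2 scale, adjusted p = 0.909, edgeR). Heyl was at 627.1, 818 and 1251 CPM in the Efhd1 cluster, against 765, 1047 and 1534 CPM in the P2rx1 cluster. Hes1 was at 70.6, 30.8 and 60.6 CPM in the Efhd1 cluster, against 133.4, 72.7 and 94.8 CPM in the P2rx1 cluster. Notch1 was at 7.92, 23.1 and 64.9 CPM in the Efhd1 cluster, against 46.1, 44.5 and 82.7 CPM in the P2rx1 cluster. These 4 genes were lower in the Efhd1 cluster in 3 of 3 mice, as was Notch4, with only 3 counts there. None of the differences passed, and how many of all genes shared a direction in 3 of 3 mice was not counted. Hey2 was at 113.6, 119.2 and 95.5 CPM in the Efhd1 cluster, against 91.1, 120 and 39.2 CPM in the P2rx1 cluster.

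**Figure D5:**
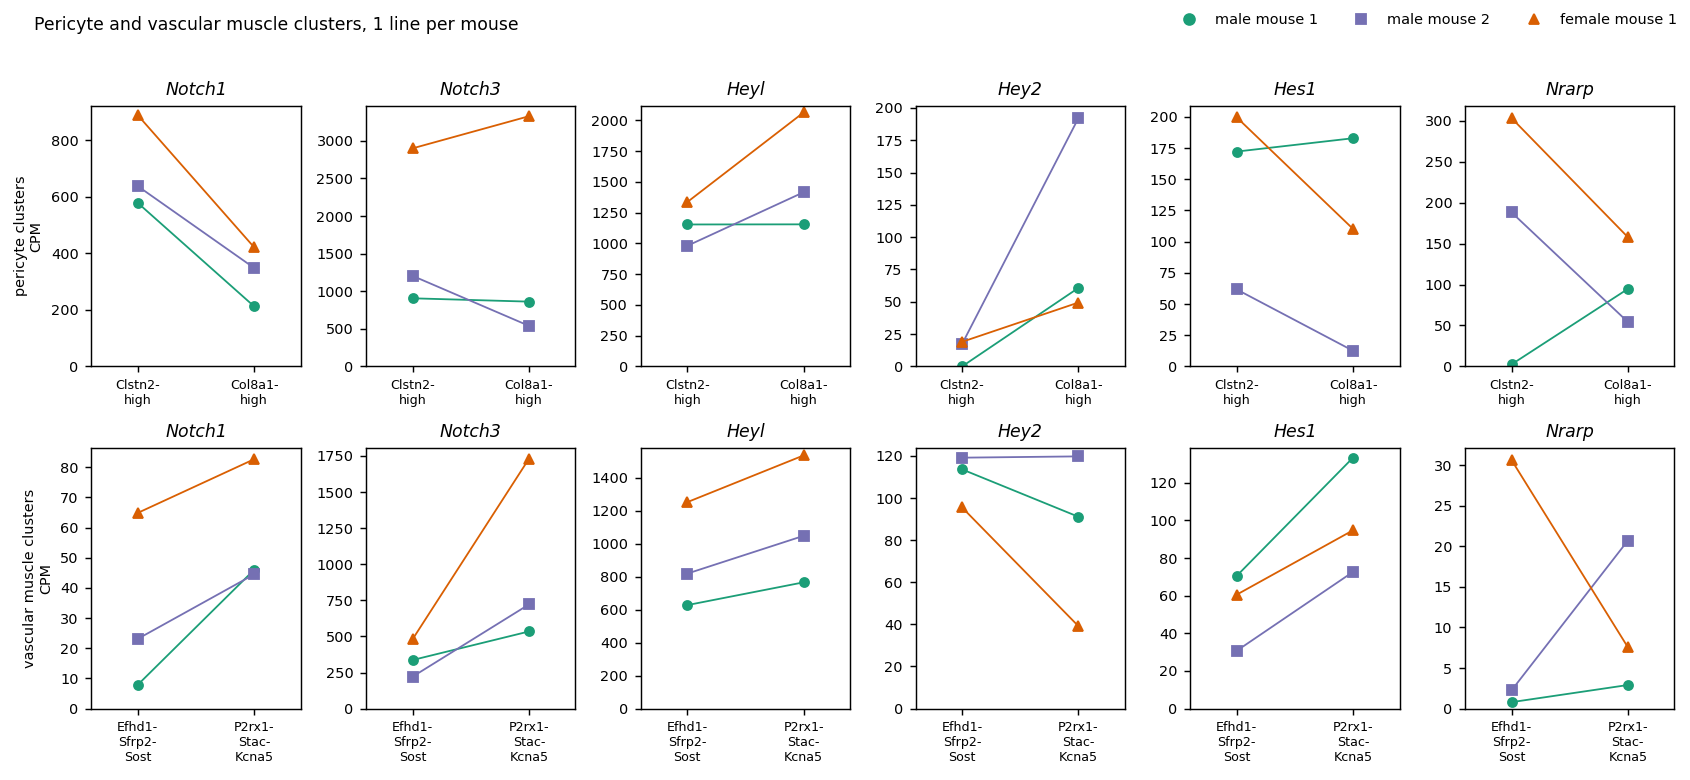
Levels in CPM of Notch1, Notch3, Heyl, Hey2, Hes1 and Nrarp in Clstn2-high and Col8a1-high pericyte-like cells and in the Efhd1-Sfrp2-Sost and P2rx1-Stac-Kcna5 vascular clusters, with 1 line per mouse. Notch1 is higher in Clstn2-high cells in every mouse, and Notch3 is lower in the Efhd1 cluster in every mouse.

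Endothelial-like cells of female mouse 1 had Hey1 at 302.98 CPM and Notch4 at 191.2 CPM, above the 40.1 and 0.308 CPM of pericyte-like cells of that mouse. Notch1 and Hes1 were at 495.1 and 132.7 CPM in endothelial-like cells, against 604.4 and 145.3 CPM in those pericyte-like cells. Notch3 and Heyl were at 13.4 and 13.9 CPM there, and Hey2 at 0.251 CPM. Jag1 was at 11.4 CPM, of which 92.6% of the counts came from 1 cell. With 1 mouse, these values have no replicate check.

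42 other genes of the pathway, listed by name, gave no call by edgeR. They comprise 7 further ligands, 10 genes of ligand and receptor processing, 5 glycosyltransferases, 11 ubiquitin ligases and adaptors, 8 nuclear factors and the target Hes5. Of these, 35 were tested in the 5 comparisons of classes (33 in that of the vascular clusters) and 0 were called in any of the 6 by edgeR. At an unadjusted p under 0.05 there were 3 in airway against vascular muscle, 6 in pericyte-like against vascular, 6 in alveolar myofibroblast-like against airway, 2 in alveolar myofibroblast-like against alveolar fibroblast-like, 1 in alveolar fibroblast-like against vascular cells and 0 between the vascular clusters. Over all genes tested the shares at that p were 11.4%, 16.99%, 12.1%, 11.98%, 14.2% and 5.59% in this order. DESeq2 called 3, 5, 4, 1, 1 and 0 of the 35, beside 7.17%, 12.8%, 7.78%, 8.08%, 10.9% and 2.06% of all genes. Numb, an adaptor known to restrain Notch receptors, was called by DESeq2 in 3 of them and is named here after its values were seen. It averaged 107.3 ± 54.8 CPM in alveolar myofibroblast-like and 26.4 ± 11.2 CPM in airway SMC-like cells (SD, n = 3 each), a log2 fold change of 2.09 ± 0.59 that did not pass with edgeR (adjusted p = 0.150). The median log2 fold change of the 35 tested in airway against vascular muscle was 0.01, beside -4.72 for the 10 members and -0.17 for all genes. Only 2 of the 7 other ligands passed the filter on low counts.

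Across 29 sums per class and mouse of at least 10 cells, Pearson's r of log2(CPM + 1) gave the genes whose pattern was most like a member. These values are descriptions, since the sums share mice and classes. The genes most like Notch3 were Ephx3 (r = 0.90), the overlapping Gm17276 (0.89) and Plekhg3 (0.88). Most like Heyl were Ccn5 (0.88), Foxs1 (0.86) and Fam110a (0.82), and most like Hey2 were Cdh13 (0.92), Itga4 (0.91) and Cdh3 (0.91). Notch1 was most like Cbfa2t3 (0.81), Sash1 (0.78) and Cyp4b1 (0.78), Jag1 most like Wrb (0.78), Prss23 (0.77) and Foxc1 (0.77), and Hey1 most like L3mbtl2 (0.70), Rasip1 (0.66) and Adora2a (0.66). Among the members the closest pairs were Notch3 with Hey2 (r = 0.87), Jag1 with Hey2 (0.78), Notch3 with Heyl (0.76) and Notch1 with Nrarp (0.72).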

How the data were processed

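RNA was measured in 1376 single cells, each a library of its own, and cells were grouped by mouse as the labels name it (653 cells of male mouse 1, 352 of male mouse 2, 371 of female mouse 1). The deposited table holds raw counts of reads per gene and cell that the authors made, per the submitters' processing notes with Bowtie, Bowtie2, Subread and featureCounts on GRCm38 or mm10. Versions, the treatment of strand and of reads that map to several genes are not given in the sources used here. Of 46517 genes, 46005 took a symbol and coordinates from GENCODE M21, and 512 without a symbol held 0.184% of counts.

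The members, gene lists, markers and tests were chosen with earlier results of these data known. Cells were clustered on 1000 variable genes of a random part of the table that left out all 52 Notch genes (counts scaled to 10000 per cell, natural log, 30 components, 15 neighbours, Leiden resolution 1, no batch correction). Names needed 3 markers in 25% of cells and a margin of 0.25 over the next list, a scoring rule set after the clusters had been seen. The classes held 505 vascular SMC-like, 151 alveolar fibroblast-like, 104 alveolar myofibroblast-like, 97 pericyte-like, 79 airway SMC-like and 67 endothelial-like cells. The filter of 1000 genes, 20000 counts and 20% mitochondrial counts removed no cell, and no doublet caller was run. Genes outside the pathway were tested in clusters made without them. A second clustering on the other part of the genes gave the same name to 994 of 1002 cells named in both (99.2%).

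Counts were summed per class and mouse for classes with at least 10 cells in each mouse and tested with edgeR 4.0.16 (quasi-likelihood test, TMM, filterByExpr, two-sided, with the mouse as a block), and p-values were adjusted over all genes tested by Benjamini and Hochberg. The block rests on the same animals giving all classes. Deviations of same-mouse sums correlated between 0.0527 and 0.538 over 30 pairs. The 3 mice are the replicates. With the mouse as a block, p-values rest on how much class differences vary between these animals, estimated over all classes in the fit. Levels are CPM of the summed counts without TMM factors, from classes with at least 3 cells. On simulated counts of airway against vascular muscle over 15874 genes, 44% of genes changed by 2 on the log2 scale and 100% of those changed by 4 were called, and 5.88% of calls were false. The simulation gave every gene the same spread and no difference between mice, so these shares do not carry over to genes that vary more. Endothelial-like cells and pericyte clusters had too few cells in 1 or more mice, so 2 of 8 planned comparisons were not run. Named genes are the 10 members, any called gene among the 42 others, and the 3 genes most like each of 6 members among genes with a mean of at least 10 CPM. The alternatives were DESeq2 1.42.0, no filter, no replicate block, leaving out each mouse, only the classes compared, clustering on the whole table, Leiden resolution 2, a filter of 2000 genes and 100000 counts, equal weight per cell, and, chosen after seeing the data, leaving out cells with endothelial or immune markers.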

Additional observations from a re-analysis of the deposited data

Results flagged for a closer look

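5 values stood out in clusters that none of the tests used, and for each only the value is given. Notch4 was at 191.2 CPM and Hey1 at 302.98 CPM in the endothelial-like cells of female mouse 1. Notch2 was at 572.9 CPM and Jag1 at 350.5 CPM over the unnamed cluster led by 5430402O13Rik and Myl2, of which 77 of 83 cells came from male mouse 1. In that mouse the levels were 629.2 and 384.8 CPM, and in the 5 cells of male mouse 2 they were 0 and 1.76 CPM. Hes1 was at 208.8 CPM over an unnamed cluster led by Kcna1 and Gpr37l1. By mouse its level there was 247.9 and 151.2 CPM in the males and 150.8 CPM in the female. In the same order this cluster held Notch3 at 305.003, 315.97 and 1164 CPM and Heyl at 541.1, 614.7 and 1436 CPM.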

How the results depend on the processing

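Each comparison was repeated under up to 12 alternatives. Of the 8 calls of members, Notch3 and Heyl in airway against vascular muscle, Heyl in alveolar myofibroblast-like against alveolar fibroblast-like and Hey2 in alveolar fibroblast-like against vascular SMC-like cells held in all 12. The others lost their call in 1 to 6 of them, as given with their values. Among the alternatives of the 52 member results without a call, 13 values were called and 25 changed sign without a call. The cause of these changes was not tested. The block changed the call of Notch3 and Heyl as given and no other member's call.

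The share of tested genes that were called moved most. With DESeq2 it was 7.17% for airway against vascular, 12.8% for pericyte-like against vascular, 7.78% for alveolar myofibroblast-like against airway, 8.08% for alveolar myofibroblast-like against alveolar fibroblast-like, 10.9% for alveolar fibroblast-like against vascular and 2.06% for the Efhd1 against the P2rx1 cluster. In a fit of only the classes compared it was 1.41%, 2.25% and 0.024% for the first 3 of these, 11.4% for alveolar fibroblast-like against vascular and 0% for the vascular clusters. Without the replicate block it was 0.488% for alveolar myofibroblast-like against airway and 0.152% for the vascular clusters, and without cells with endothelial or immune markers 1.67% and 0.17%. Leaving out 1 mouse gave 0.328% to 0.769%, 0.612% to 1.39%, 0.031% to 0.163%, 0.531% to 0.775%, 1.76% to 2.73% and 0.0511% to 0.0796% in the order of the DESeq2 shares, each under the share in all 3 mice.

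The sign changed as follows, on the log2 scale and with no call. Fitting only the classes compared gave -0.048 for Notch4 in airway against vascular. No replicate block gave 0.53 for Hey1 in pericyte-like against vascular and 0.13 for Nrarp between the vascular clusters. The clustering on the whole table gave 0.35 for Heyl and -0.012 for Nrarp in alveolar myofibroblast-like against airway, 0.65 for Nrarp in alveolar myofibroblast-like against alveolar fibroblast-like, 0.054 for Notch1 and 0.48 for Notch4 in alveolar fibroblast-like against vascular, and 0.32 for Hey1 between the vascular clusters. Equal weight per cell gave -0.18 for Nrarp in alveolar myofibroblast-like against airway, 0.041 for Notch1 in alveolar fibroblast-like against vascular and 0.55 for Hey1 between the vascular clusters. For that Notch1 result DESeq2 gave 0.0062 and leaving out the marker cells 0.20. Leaving out 1 mouse at a time gave -1.21 to 0.27 for Hes1 in airway against vascular. It gave -1.999 to 3.28 for Notch1, -1.07 to 1.11 for Hes1 and -1.08 to 0.54 for Nrarp in alveolar myofibroblast-like against airway. It gave -4.58 to 0.21 for Notch4 and -7.36 to 1.24 for Nrarp in alveolar myofibroblast-like against alveolar fibroblast-like. It gave -0.50 to 1.28 for Hey1 and -0.23 to 0.18 for Notch1 in alveolar fibroblast-like against vascular. It gave -0.87 to 0.36 for Hey1 and -0.39 to 1.31 for Jag1 between the vascular clusters.

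All counts in place of thinned cells moved the median share of cells over the 10 members to 24.7% in airway SMC-like, 58.5% in pericyte-like, 30.4% in alveolar myofibroblast-like, 34.4% in alveolar fibroblast-like, 39.1% in Pi16-Bmp7, 61.5% in endothelial-like and 48.7% in vascular SMC-like cells. The pericyte comparison could not be run under the stricter cell filter or without marker cells, which left too few cells in male mouse 2. The depth bounds what low class sums can show, and several of them rest mostly on 1 cell, as given.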
